A study of Mus musculus with 4 samples.

Results

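Small structural RNAs that do not encode protein were examined in mouse embryonic stem cells in which the long non-coding RNA Mrhl was targeted. The 6 genes described are Snord17, Rnu3a, Snord118, Snord15a, Rn7sk and Terc, taken by symbol from the authors' deposited lists of changed genes, which held 1132 distinct symbols in all. They were selected on the authors' fold-change values, since only listed genes could be taken, so these values and their common direction are a description and were given no test. One group received an shRNA against Mrhl (sh-Mrhl) and the other a scrambled shRNA, with 2 libraries in each. All libraries came from E14tg2a, an established embryonic stem cell line labelled with the 129/Ola strain, 48 hours after the shRNA was introduced. The treatment text describes transient transfection, whereas a label field of the same samples names a lentivirus. Nothing in the labels says whether replicates were separate cultures. Both targeted libraries carry the same label, sh-Mrhl, so other targets of the shRNA and the loss of Mrhl cannot be told apart.

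Box C/D small nucleolar RNAs (snoRNAs) assemble with the methyltransferase fibrillarin and its partner proteins, and most of them guide ribose methylation of ribosomal RNA by base pairing. A few, among them U3 (Rnu3a) and U8 (Snord118), are needed instead for the cleavage steps that release the mature rRNAs from their precursor. Rn7sk encodes 7SK, the RNA that holds the pause-release kinase P-TEFb inactive together with HEXIM proteins, and Terc encodes the RNA subunit of telomerase, which carries the template for telomere repeats.

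The 6 RNAs are shown by sequence because their short length and copy number bear on how reads can be assigned to them. The sequences also show where the letters of their boxes and other motifs lie. Sequences are those of GENCODE M21 transcripts on GRCm38 (the assembly also called mm10), written 5′ to 3′ with T for U. In the 4 snoRNAs, capitals mark each TGATGA, the letters of box C, and the last CTGA, the letters of box D. In Rn7sk, of which the first 120 bases are shown, they mark GATC, and in Terc they mark CTAACCCT, a stretch complementary to the telomere repeat, and the ACA near the end.

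Snord17, chr2:144265979-144266216, minus strand: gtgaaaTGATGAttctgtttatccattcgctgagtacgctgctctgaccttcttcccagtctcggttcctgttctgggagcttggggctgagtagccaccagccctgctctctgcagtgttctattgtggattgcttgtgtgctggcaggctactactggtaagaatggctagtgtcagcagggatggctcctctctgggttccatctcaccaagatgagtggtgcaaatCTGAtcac
Rnu3a, chr10:40258467-40258680, plus strand: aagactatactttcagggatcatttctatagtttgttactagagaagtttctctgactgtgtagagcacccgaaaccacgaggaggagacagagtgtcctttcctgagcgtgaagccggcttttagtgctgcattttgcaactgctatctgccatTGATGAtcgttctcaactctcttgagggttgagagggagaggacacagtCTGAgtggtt
Snord118, chr11:69073427-69073561, plus strand: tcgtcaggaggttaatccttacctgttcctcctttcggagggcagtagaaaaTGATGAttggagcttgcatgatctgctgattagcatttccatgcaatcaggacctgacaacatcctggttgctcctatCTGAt
Snord15a, chr7:99482785-99482932, minus strand: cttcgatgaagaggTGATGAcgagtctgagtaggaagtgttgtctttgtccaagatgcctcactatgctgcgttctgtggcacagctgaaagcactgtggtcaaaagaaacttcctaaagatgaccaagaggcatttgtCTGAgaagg
Rn7sk, chr9:78175514-78175633, minus strand: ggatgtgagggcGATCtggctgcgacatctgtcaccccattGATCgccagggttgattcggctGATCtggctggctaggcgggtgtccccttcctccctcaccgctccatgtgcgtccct
Terc, first 100 bases, chr3:96414760-96414859, minus strand: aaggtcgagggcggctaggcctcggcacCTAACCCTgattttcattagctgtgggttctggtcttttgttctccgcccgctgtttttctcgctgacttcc
Terc, last 60 bases, chr3:96414437-96414496, minus strand: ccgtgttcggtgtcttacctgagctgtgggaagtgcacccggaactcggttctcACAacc

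TGATGA occurred once in the sense strand of each of the 4 snoRNAs and in neither Rn7sk nor Terc. The last CTGA lay 1 base from the 3′ end in Snord118, 4 in Snord17, 5 in Snord15a and 6 in Rnu3a. In Snord17 and Snord15a the box C letters began at positions 7 and 15, close to the 5′ end, whereas they began at position 53 in Snord118 and at position 156 of 214 in Rnu3a. The RNAs with the internal position are the ones known for pre-rRNA cleavage, U8 and U3. Among all 1507 annotated snoRNA genes, which include the H/ACA class, 351 (23.3%) held TGATGA together with a CTGA in their last 20 bases. The reverse complement of TGATGA was found in none of the 6 RNAs, and no TGATGA overlapped a CTGA. GATC, the palindromic letters within which HEXIM binding to human 7SK has been mapped, began at positions 13, 42 and 64 of Rn7sk, and 73 of 562 annotated misc_RNA genes (13.0%) held at least 3 copies. CTAACCCT occurred once in Terc, from position 29, and in 10 of 3452 annotated snoRNA, snRNA and misc_RNA genes (0.290%). The ACA 3 bases before the 3′ end of Terc, where H/ACA RNAs carry their namesake box, was found at that place in 276 of the 1507 snoRNA genes (18.3%). TTTT, the letters of a polymerase III terminator, was in neither strand of Rn7sk as annotated.

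**Figure D1:**
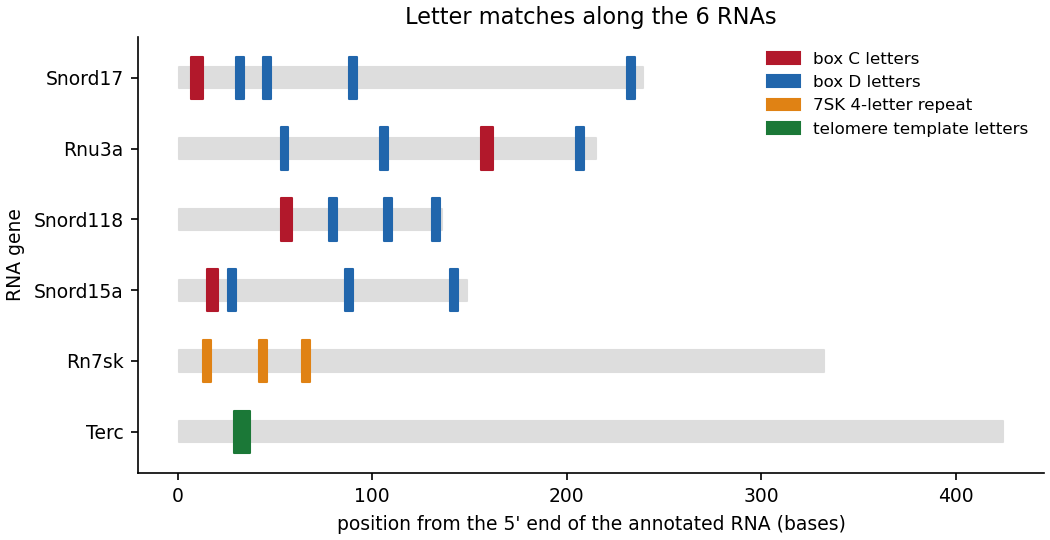
Letter matches along the 6 RNAs, drawn from the 5′ end of each annotated RNA in bases. Red marks box C letters, blue box D letters (snoRNAs only), orange the GATC matches of Rn7sk and green the template letters of Terc; the last box D match lies within 6 bases of the 3′ end in each of the 4 snoRNAs.

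Each RNA had 1 signed fold-change value for sh-Mrhl against scrambled, the authors' own, with no level per library, p-value or error in the tables used here. The scale of this value is not stated, so the values are printed as deposited. As an example of what this leaves undecided, the Snord17 value would mean 3.63% of the scrambled level on a log2 scale and 20.9% as a signed linear fold, and the Snord15a value 35.2% and 66.3%. Lower and higher refer to the list in which the authors placed a gene. In bulk libraries, fewer cells that make an RNA and less of it per cell cannot be told apart. All 6 RNAs were in the list of lower genes, in a comparison in which 63.7% of the listed symbols with 1 direction were lower and 1.3% of the symbols in GENCODE M21 were listed as lower. The rule took its members from these lists, so nothing is read from that difference.

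The snoRNAs spanned nearly the whole range of the lower list. The authors' deposited table gave -4.79 for Snord17, an RNA assigned in human to ribose methylation of large-subunit rRNA. Only 1 of 722 lower symbols had a more negative value. Rnu3a, the U3 RNA that pairs with the precursor of small-subunit rRNA, was at -2.89 in the authors' deposited table, with 8.17% of the lower symbols more negative. Snord118, the U8 RNA of large-subunit rRNA maturation, stood at -1.80 in the authors' deposited table, closer to 0 than the median of all lower symbols, -1.91. Snord15a, a guide of ribose methylation, was at -1.51 in the authors' deposited table, and only 5 lower symbols were closer to 0. Both RNAs of pre-rRNA cleavage therefore lay between the 2 methylation guides, which held the extremes of the 6. The median of the 4 snoRNAs was -2.34.

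Outside rRNA maturation, Rn7sk was at -2.24 in the authors' deposited table, rank 218 of 722 from the most negative. Terc was at -1.55 in the authors' deposited table, with 34 lower symbols closer to 0. Over the 6 RNAs the median was -2.02, and Snord17, Rnu3a and Rn7sk were the 3 at or below -2. No value in either table lay between -1.5003 and 1.5032, so Snord15a and Terc were listed just inside the limit and any RNA with a smaller change would not be seen. Just inside that limit the authors' deposited table had 1700020L24Rik at -1.5003 and Th at -1.508, next to Snord15a.

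**Figure D2:**
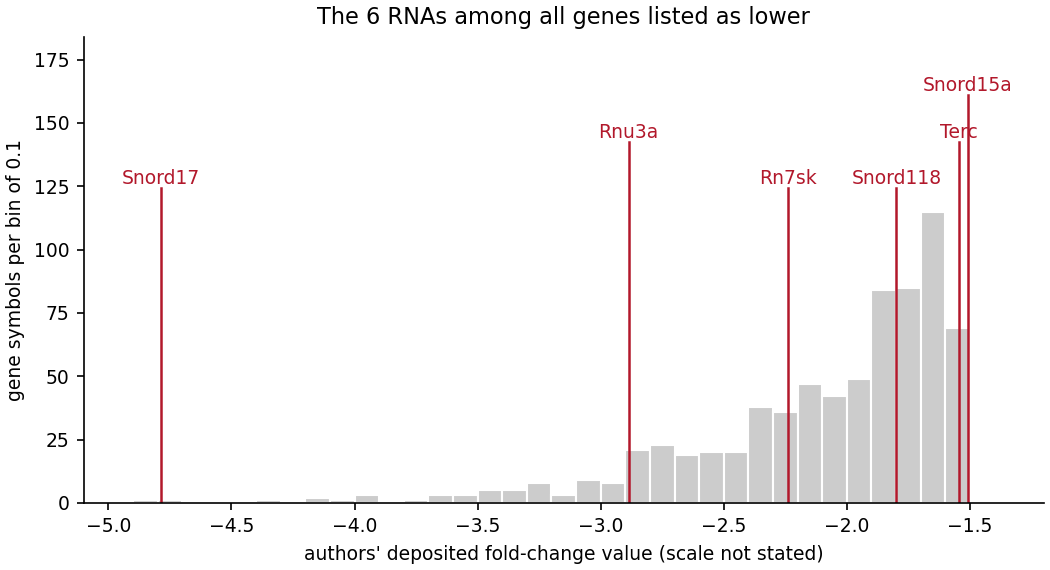
Values of all 722 symbols listed as lower, as counts per bin of 0.1 of the authors' value (grey), with a red line at each of the 6 RNAs. Snord17 stands in the thin tail near -4.79, while Terc and Snord15a stand at the limit of the list.

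Rnu3a had 2 rows in the lower table with the same value. GENCODE M21 likewise holds 2 gene entries of that symbol on chromosome 10, both starting at 40258467 and differing by 1 base at the 3′ end, so the 2 rows do not stand for separate measurements and were counted once. The other 5 RNAs had 1 row and 1 gene entry each. Annotated ends differed between sources for some of them. Terc was 423 bases long in GENCODE M21 and 397 in RefSeq, which starts it 26 bases further in, 2 bases before the template letters, and Snord17 was 238 against 221 bases. Ends for Rnu3a, Snord118, Snord15a and Rn7sk differed by at most 1 base on either side. GC content was 51.7% in Snord17, 46.3% in Rnu3a, 45.9% in Snord118 and 46.6% in Snord15a, against a median of 45.3% over annotated snoRNA genes, and it was 58.0% in Rn7sk and 67.1% in Terc.

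Reads of near-identical copies cannot be told apart, so the RNAs were compared with every annotated transcript. No other gene matched Snord17, Rnu3a, Snord15a, Rn7sk or Terc at 90% identity over 80% of the RNA. Snord118 had 1 such match, the unlisted gene model Gm24208 at 96.2% identity, so the Snord118 value is uncertain to that extent. For Rnu3a the 4 other named U3 genes, Rnu3b1, Rnu3b2, Rnu3b3 and Rnu3b4, matched at 86.0% identity. The gene models Gm23927 and Gm24826 matched as closely, and none of these genes was listed. The closest relative of Rn7sk was Gm23037 at 89.2% and that of Terc was 1600017P15Rik at 81.1% over 93% of its length, both unlisted. Unannotated copies in the genome were not searched.

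Listed Snord genes were the long ones of their family. GENCODE M21 has 98 symbols of the Snord series with a median length of 84.5 bases, and 3 of them (3.06%) were listed, all lower, near the 2.04% of all annotated symbols that were listed. Only 4 of the 98 were at least as long as Snord118, at 135 bases, and these were Snord17 with 238, Snord15a with 148, Snord118 itself and the unlisted Snord15b with 145. None of the 94 shorter Snord genes, the longest of them 126 bases, was listed. The dividing length is that of the shortest listed member and was thus set by the lists. Neither the 40 Snora symbols nor the 9 Scarna symbols, for snoRNAs of the H/ACA class and RNAs of Cajal bodies, had a listed member. Listed genes of the whole snoRNA and snRNA types were long as well. Of the 9 listed snoRNA genes, which include 4 of the 6 RNAs, 8 were longer than the annotated median of 127 bases, with a median of 136, and all 6 listed snRNA genes were longer than theirs of 107 bases, with a median of 177.5. Many unlisted genes were as long, since 815 of the 1507 annotated snoRNA genes (54.1%) reached the shortest listed length of 126 bases. For snRNA genes 250 of 1383 (18.1%) reached the shortest listed length of 141 bases. Listed genes were thus mostly longer than the median of their type, and the part of length in the result was not tested.

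**Figure D3:**
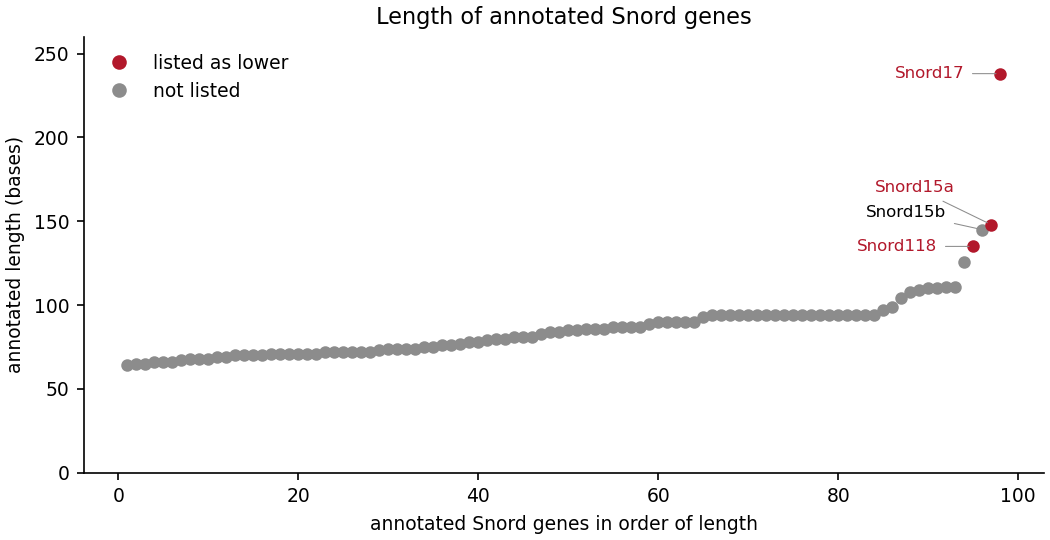
Annotated length in bases of the 98 Snord genes in order of length, with listed genes in red. Snord118, Snord15a and Snord17 are among the 4 longest, and the other one, Snord15b at 145 bases, was not listed.

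Host genes were not in either list. Snord17 lies in an intron of Snx5, a sorting nexin gene on chromosome 2 from 144250123 to 144270906, on the same strand. Snord15a lies in an intron of the ribosomal protein gene Rps3, on chromosome 7 from 99477896 to 99483738, also on the same strand. Rps3 carries Snord15b as well, 3077 bases from Snord15a, and the longest alignment between these RNAs covered 14% of Snord15a, so they can be told apart by sequence over most of their length. In this host the authors listed 1 of the 2 RNAs and not the other, and not Rps3. An unlisted gene may still have changed, because the threshold of the lists is not stated and its value was not analysed here. No listed value lay between -1.5003 and 1.5032, and Snord15a, at -1.51, was just inside that limit. Snord15b or Rps3 could therefore have a value close to that of Snord15a and still be unlisted.

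The other 4 RNAs had no spanning gene on either strand. Snord118 starts 133 bases after the annotated end of Tmem107, a cilium gene on the same strand. Rnu3a lies 358 bases from Gtf3c6, which encodes a subunit of a polymerase III transcription factor, on the opposite strand. Rn7sk has the lincRNA gene C920006O11Rik 280 bases away on the opposite strand, and its nearest protein-coding gene is Ick, a kinase gene at 3195 bases. None of these neighbours was listed. Of 26 neighbours within 20 kb of any of the 6 RNAs, 2 were listed, namely the processed pseudogene Gm11688, within Snx5 and 4437 bases from Snord17, at 1.97, and BC107364, 18928 bases from Terc, at -2.39 in the authors' deposited tables. Over the whole annotation 2.04% of symbols were listed, and with so few neighbours nothing is read from this count. Gm11688 was in the higher list although Snord17 beside it was in the lower one.

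**Figure D4:**
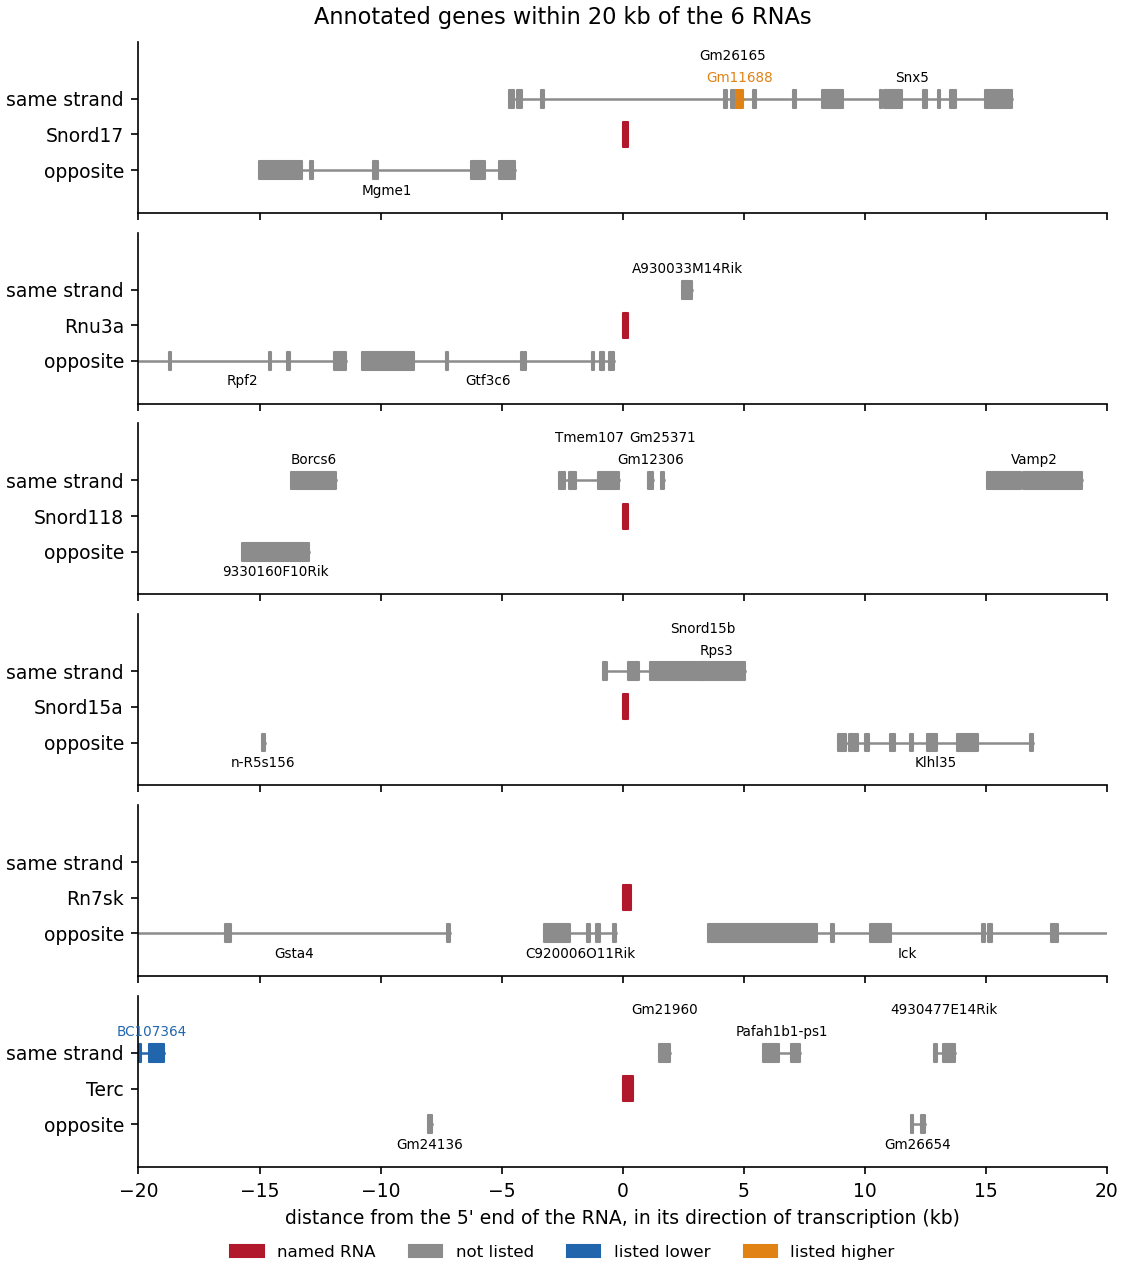
Annotated genes within 20 kb of each RNA, by distance in kb from its 5′ end along its own direction of transcription, with exons as boxes on the same strand (upper line) or the opposite strand (lower line) and the RNA in red, widened to be visible. Grey genes were not listed; Gm11688 near Snord17 was listed as higher and BC107364 near Terc as lower.

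The proteins that work with these RNAs were looked up in the same lists. None of the 4 core box C/D proteins, such as the methyltransferase gene Fbl and the scaffold genes Nop56 and Nop58, was listed, and none of 10 assembly factors. The same held for 44 proteins of the U3-containing small-subunit processome and for 40 of large-subunit rRNA processing. For 7SK, none of 25 genes of its particle and of pause release was listed, among them Larp7, Mepce, Hexim1 and the kinase gene Cdk9. Of 14 genes of telomerase and its assembly, among them the reverse transcriptase gene Tert and the H/ACA protein gene Dkc1, none was listed either. Among 20 genes of shelterin and telomere maintenance 1 was lower, Zscan4f, a gene of the rare Zscan4-positive stem cell state, at -3.47 in the authors' deposited table, and it has close copies that can share reads.

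Genes that make or degrade small RNAs were not listed, namely 28 of RNA polymerase III and snRNA transcription, 18 of Integrator and snRNA 3′ ends and 22 of the nuclear exosome and related decay factors. Nor were 19 snoRNA host transcripts without a protein product or 26 coding host genes. Of 27 other housekeeping small RNAs, among them Rmrp, Rpph1 and the U1 gene Rnu1a1, none was listed under its own symbol. This look-up does not cover unnamed copies. The gene model Gm22513, which matched Rnu1a1 at 99.4% identity, was in the lower list. So were Gm25939, Gm22973 and Gm25360, which matched the U2 gene Rnu2-10. Replication-dependent histone transcripts, which like most of these RNAs end without a poly(A) tail, had 2 lower genes among 26 symbols that also include 3′ end factors. These were Hist1h3i at -1.996 and Hist1h2ab at -1.71 in the authors' deposited table. Over all 15 lists 3 of 323 annotated symbols were listed. As 2.04% of all annotated symbols were listed, short lists without a listed gene are no result about these pathways. The 8 stem cell markers examined, such as Pou5f1 and Nanog, were not listed, and as the tables hold no levels the labelled cell type could not be checked. Mrhl was not listed either, so its own level could not be checked.

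Besides the 6 RNAs, 15 further genes of small RNA types were listed, all unnamed gene models. Of these 13 (86.7%) were lower, with a median of -2.27, and 2 were higher, beside 63.7% lower over all listed symbols. Some of the 13 closely match each other in sequence, such as Gm24407 and Gm24265 at 98.6% identity. Such genes can share reads, so the 13 are not all separate observations. Of annotated symbols 9 of 1483 snoRNA genes (0.607%), 6 of 1383 snRNA genes (0.434%) and 6 of 562 misc_RNA genes (1.07%) were listed, against 2.52% of protein-coding genes. Which annotated symbols were expressed or tested is not known, so these shares do not compare how often each type changed. No listed gene was annotated as a miRNA, scaRNA, ribozyme or rRNA. Of the 58 listed genes of any type with at most 400 exonic bases, 35 (60.3%) were lower, and of the 15 with at most 200 exonic bases 14 (93.3%) were lower. Of the 265 with at most 1000 exonic bases 156 (58.9%) were lower. Most of the listed genes with at most 200 exonic bases were themselves snoRNA or snRNA genes, Snord118 and Snord15a among them. Their 93.3% is therefore not separate from the counts of small RNA types. Processed pseudogenes of at most 400 exonic bases were 10 lower and 16 higher, while the 15 snoRNA and snRNA genes, 4 of the 6 RNAs among them, were all lower.

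**Figure D5:**
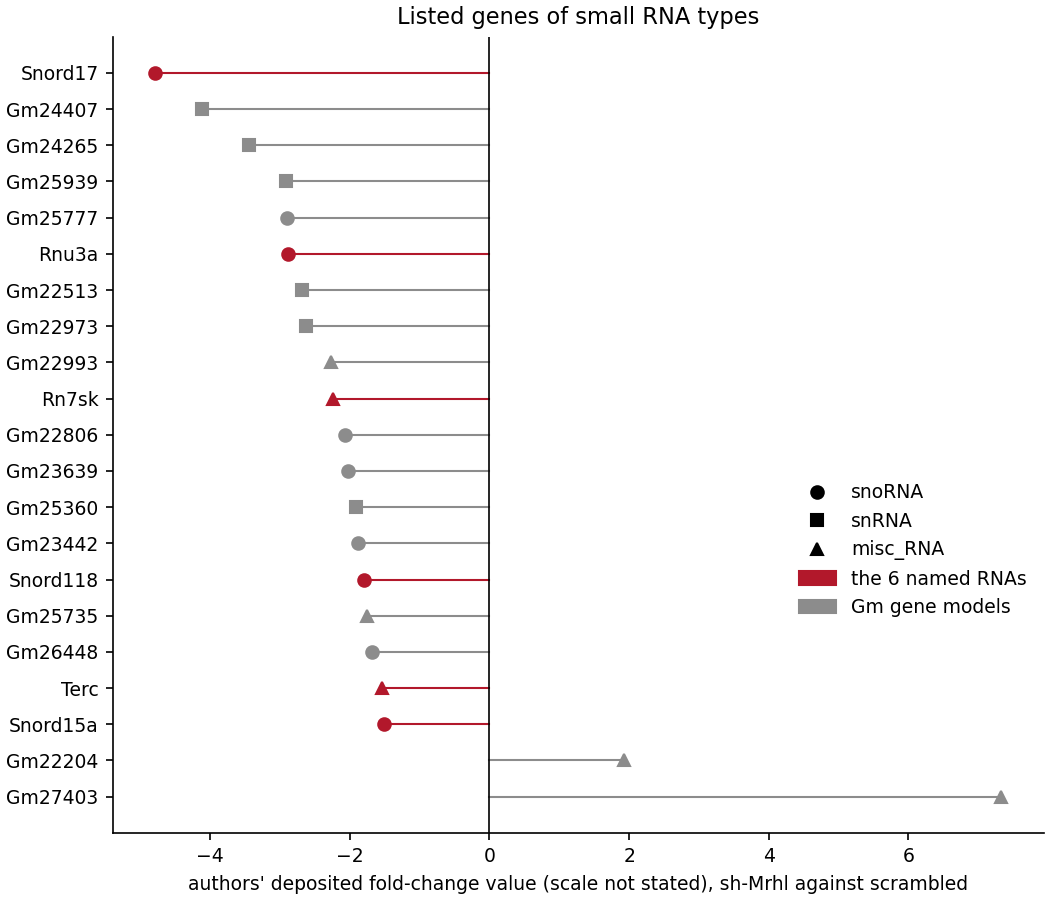
The authors' fold-change value (horizontal axis, scale not stated) of the 21 listed genes of small RNA types, with the 6 named RNAs in red and gene models in grey; marker shape gives the gene type. The 6 RNAs lie between -4.79 and -1.51, and the 2 genes on the right are Gm22204 and Gm27403.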

How the data were processed

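RNA sequencing was done on 2 scrambled and 2 sh-Mrhl libraries. Per the labels' protocols, Trizol RNA was treated with DNase and an Illumina TruSeq RNA kit was used for library preparation; how poly(A) tails, rRNA and short inserts were handled is not given in the sources used here. TopHat2, Cuffdiff and mm10 are named in the submitters' processing notes, without versions. The authors deposited 2 tables of listed genes with 1 signed fold change each, handled as a score because its scale is not stated. No count or level per library was used, so depth and replicate error are unknown and no test was run. The model fits planned for values per library were therefore not run.

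From these tables, 1132 distinct symbols were kept, 1131 of them with 1 direction and 1128 of those found in GENCODE M21. Members, gene lists and the rule for named genes (the 6 RNAs, their hosts, nearest coding genes and copies, listed small RNA genes and listed list members) were chosen with earlier results of these data known. C920006O11Rik, 1700020L24Rik, Th and Gm11688 were named after their values or places were seen. Copies were searched on the sense strand of all annotated transcripts with BLAST+ 2.17.0 (blastn, expect limit 1e-5), after the search was tested on simulated data. Python 3.11.15 and matplotlib 3.10.9 were used. Alternatives changed the minimum value, gene types, row counting, length limit and identity. RefSeq lengths are from GRCm38.p6.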

Additional observations from a re-analysis of the deposited data

How the results depend on the processing

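Requiring an absolute value of at least 2 left 320 lower and 136 higher symbols over all genes (721 and 410 without it), and 12 lower and 1 higher gene of small RNA types (19 and 2). Without unnamed gene models these counts were 354 and 214, and 6 and 0. Counting every row gave no change beyond 1.5 times. The median of the 6 RNAs was -1.80 without Snord17 and -2.34 for the snoRNA genes only, against -2.02. Among listed genes with exons of at most 200 bases 14 were lower and 1 higher, and with at most 1000 bases 156 and 109, against 35 and 23 at 400. At 80% identity over 80% of the RNA, Rnu3a had 9 matching genes, Rn7sk 1 and Terc 1, against 0 each at 90%. Counts for Snord17, Snord118 and Snord15a, and the host look-up on either strand, were the same. These differences follow from the fewer or further genes each setting counts. No paired analysis was possible because each gene has 1 value over both groups, which also kept replicates from being left out in turn. The depth behind each value is not known.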

Other observations

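Some of the gene models among the listed small RNAs fell into sequence families, described here after their values were seen. Gm24407 and Gm24265, neighbouring snRNA genes on chromosome 5, were at -4.12 and -3.44 in the authors' deposited table. Their sequences are shown because they differ at 2 of 141 positions, A88G and A99C from Gm24407 to Gm24265, counted from the 5′ end and in capitals below, so a read that covers neither position matches both genes.

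Gm24407, chr5:115490254-115490394, plus strand: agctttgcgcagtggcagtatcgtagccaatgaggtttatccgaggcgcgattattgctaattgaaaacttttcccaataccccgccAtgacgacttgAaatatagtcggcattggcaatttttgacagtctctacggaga
Gm24265, chr5:115489459-115489599, plus strand: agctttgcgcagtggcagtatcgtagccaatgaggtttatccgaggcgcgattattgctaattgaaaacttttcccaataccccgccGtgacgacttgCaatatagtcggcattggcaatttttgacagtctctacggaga

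Gm25939, Gm22973 and Gm25360, at -2.91, -2.63 and -1.91 in the authors' deposited table, matched Rnu2-10, a U2 gene, at 98.4%, 95.3% and 97.9% identity, and each had 12 other annotated genes at 90% identity or more. Gm22513, at -2.69 in the authors' deposited table, matched the U1 gene Rnu1a1 at 99.4% and had 37 such genes. Neither Rnu2-10 nor Rnu1a1 was listed, so single values within these families are uncertain. Of the 6 named RNAs only Snord118 had a match at that identity. Few copies were not particular to the named RNAs, since the gene models Gm25777, Gm22993, Gm25735, Gm26448 and Gm22204 had 0 such matches.

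Several snoRNA gene models also lay in introns of unlisted hosts on the same strand, among them Gm25777 (-2.89 in the authors' deposited table) in Ranbp1, Gm22806 (-2.06) in Cks2, Gm23639 (-2.03) in Epb41l4aos, Gm23442 (-1.88) in Prrc2a and Gm26448 (-1.68) in Rpsa. Gm26448 matched Snora73b, an H/ACA RNA, at 89.1% identity, and Gm22806 matched Snora2b at 92.0%, so the lower list was not confined to box C/D relatives. The 2 higher genes were misc_RNA models. Gm27403, at 7.33 in the authors' deposited table, overlaps an exon of Sox2ot on the same strand and its whole sequence is contained in a Sox2ot transcript, and Sox2ot was not listed. Gm22204, at 1.93 in the authors' deposited table, lies in an intron of Xab2 on the opposite strand.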
